A study of Mus musculus with 9 samples.

Results

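The genes described here encode the proteins of the cytosolic ribosome. They were taken from the expression table by symbol: every row whose mouse symbol is Rpl or Rps followed by a number, with or without a closing a, x or l, together with Rplp0, Rplp1, Rplp2 and Rpsa, and without rows that carry the pseudogene mark -ps. The rule matched 83 of 55401 rows, and 79 of them had a mean of at least 1 TPM (transcript level normalised for gene length and library total) over the 9 columns, 48 of the large and 31 of the small subunit. Of these 79 members, 77 are annotated as protein coding, and 2, Rpl6l and Rpl32l, are annotated as processed pseudogenes. The 4 rows under the limit are the paralogs Rpl10l, Rpl39l and Rps4l, which were listed at 0 TPM in all 9 columns, and Rpl3l, whose highest column was 0.379 TPM.

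The samples were cultures of RAW264.7, a mouse macrophage cell line that grows continuously in culture. One group received the solvent DMSO, the next received DMSO with lipopolysaccharide (LPS, a bacterial cell wall component that activates macrophages), and the last received LPS with skatole (Ska, an indole made by gut bacteria), with 3 columns per group numbered 5, 6 and 7. The treatment time was 24 h in the labels and in the study's results, while its methods give a longer time. All groups share the cell line, and nothing in the labels says whether the columns of a group came from separate cultures, so the spread between them may be technical. The comparison of LPS with DMSO asks what activation changes, and that of LPS + Ska with LPS asks what skatole changes in activated cells.

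Every ribosome holds a small subunit, which reads the mRNA, and a large subunit, which joins the amino acids, and each subunit is built in the nucleolus from ribosomal RNA and 1 copy of nearly every ribosomal protein. The mRNAs of these proteins begin with a run of pyrimidines after a cytosine, the terminal oligopyrimidine tract, through which the kinase complex mTORC1 controls their translation. Ribosomal protein mRNAs are among the most abundant in growing cells, and macrophage activation is known to reshape translation.

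The columns of the treated groups were not independent. In 79 of 79 members, the replicate 5 value of LPS and of LPS + Ska lay exactly midway between the values of replicates 6 and 7, to within 0.0001 TPM, whereas this held for 0 of 79 in DMSO. No more than 2 values per treated group can thus be independent, and the standard deviations and p-values given here treat them as 3. In LPS + Ska, replicate 7 was above replicate 6 in 77 of 79 members, with a median difference of 0.48 on the log2 scale, while over the 12740 other genes tested the median difference was -0.10 and 38.9% were higher in replicate 7. The number of genes at 1 TPM or more was 12498 to 13012 per column, all 10 macrophage markers looked up were present in every group, and none of the 16 markers of fibroblasts, epithelium, T cells and B cells reached a mean of 1 TPM. Of 8 LPS response genes tested, 7 were higher in LPS than in DMSO. The sequencing depth is unknown because the table holds TPM only.

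The sequences around the transcription start are shown for 6 members on which the comparisons turn, 3 that were up-regulated step by step (Rps27, Rps28, Rpl39) and 3 that were down-regulated (Rps10, Rpl15, Rpl13a). Each window holds 50 bases before the RefSeq start and 30 from it on (GRCm38.p6), read in the direction of the gene, and capitals mark CTTTC, a short form of the pyrimidine tract searched on the gene's own strand. Rps27 was read from chr3:90213619-90213698, minus strand. Rps28 was read from chr17:33824533-33824612, minus strand. Rpl39 was read from chrX:37085193-37085272, minus strand. Rps10 was read from chr17:27635215-27635294, minus strand. Rpl15 was read from chr14:18270957-18271036, minus strand. Rpl13a was read from chr7:45128716-45128795, minus strand.
Rps27: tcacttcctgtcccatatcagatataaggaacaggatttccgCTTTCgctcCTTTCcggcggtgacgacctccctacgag
Rps28: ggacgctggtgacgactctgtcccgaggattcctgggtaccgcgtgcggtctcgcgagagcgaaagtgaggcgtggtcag
Rpl39: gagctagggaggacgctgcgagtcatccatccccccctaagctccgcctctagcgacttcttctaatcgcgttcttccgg
Rps10: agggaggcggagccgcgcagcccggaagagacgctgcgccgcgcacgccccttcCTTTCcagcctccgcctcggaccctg
Rpl15: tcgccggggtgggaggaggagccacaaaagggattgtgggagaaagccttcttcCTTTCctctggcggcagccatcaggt
Rpl13a: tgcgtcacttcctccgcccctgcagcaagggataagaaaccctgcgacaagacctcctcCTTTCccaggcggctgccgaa

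RefSeq starts were matched for 58 of the 79 members. CTTTC lay in this 80-base window in 24 of 58 members (41.4%), against 10.5% of the 8696 genes tested that have a start in the table. It was found in 17 of 35 large subunit members and in 7 of 23 small subunit members. Among members with a start that were lower in LPS than in DMSO it was found in 4 of 5, and among those that were higher in 5 of 11. Over the whole 300-base promoter (250 bases before the start), on either strand, the motif TCGCGAGA lay in 10 of 58 members (17.2%) against 2.78% of genes tested, CCGGAA, the core of ETS factor sites, in 32 of 58 (55.2%) against 34.5%, and GGGCGG, the core of Sp1 sites, in 35 of 58 (60.3%) against 69.2%. No motif holds another, and a match is only a description of the sequence.

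Members were highly expressed and unequal in level. The median of their mean TPM was 968, against 20.7 for all genes tested, 37 members were at 1000 TPM or more and 5 were under 50 TPM. Rplp1, an acidic protein of the stalk that recruits elongation factors, was the highest, at 6234 ± 161 TPM in DMSO, 8638 ± 201 in LPS and 8037 ± 260.1 in LPS + Ska (SD, n = 3 columns). Rpl4, Rpl10 and Rpsa were also among the 5 highest by mean level over all columns. The DMSO columns of Rpl4 and Rpl10 did not overlap (3198 to 3288 against 2621 to 2678 TPM), nor did those of Rpl10 and Rpsa (2503 to 2582 TPM). At the other end stood Rpl32l, Rpl29, Rpl21, Rpl26 and Rpl35a, with DMSO means of 1.97, 19.1, 25.5, 22.1 and 28.4 TPM.

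Several low levels sat beside high levels of pseudogene rows with nearly the same sequence, so the split between a gene and its copies is uncertain. Rps2 had a mean of 166 TPM while its 11 pseudogene rows summed to 1513 TPM, of which Rps2-ps10 held 1032. Rpl35a had 36.3 TPM against 660.3 TPM in 6 such rows, and Rpl21 had 21.4 TPM against 182 TPM in 15 rows. In all, 59 members had pseudogene rows of their own name and 5 of them, Rps2, Rpl35a, Rpl30, Rps18 and Rpl21, were below the sum of those rows. The 299 pseudogene rows summed to 8597 ± 299 TPM in DMSO, 8900.2 ± 570.0 in LPS and 9937 ± 1686 in LPS + Ska, or 8.98% to 10.4% of members and pseudogene rows together in single columns.

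As a whole, members took 8.36% ± 0.0311 of all TPM in DMSO, 8.50% ± 0.216 in LPS and 8.82% ± 1.18 in LPS + Ska (SD, n = 3 columns). Such a share comes from bulk RNA, in which fewer cells of a kind and less RNA per cell cannot be told apart. The sum of the members was 83453, 83938 and 83368 TPM in the DMSO columns, 84959, 82798 and 87120.1 in LPS, and 88232, 76385 and 100079.8 in LPS + Ska, with replicates in the order 5, 6 and 7. The LPS + Ska columns lay on both sides of all DMSO and LPS columns, from 7.64% to 10.0% of all TPM against 8.34% to 8.39% in DMSO. From the tied columns, 2 values per treated group can also be recovered, midway between replicate 5 and each of replicates 6 and 7. These summed to 83878 and 86039 TPM in LPS and to 82309 and 94156 in LPS + Ska, a narrower spread than that of the columns. The labels do not say which of these values were measured. Over all genes, replicates 6 and 7 summed to 1000095 and 1000077 TPM in LPS and to 1000124 and 1000145 in LPS + Ska. Each of these sums is above that of replicate 5 in its group (999951 and 999974). The tie could fail where replicate 7 was listed at 0, as for Cd4 in LPS (0.0164, 0.0493 and 0 TPM). Replicates 6 and 7 of the treated groups may thus not be measured values, and their spread may be too wide. The large subunit summed to 51619 ± 224 TPM in DMSO, 51807 ± 1173 in LPS and 52436 ± 7241 in LPS + Ska. The small subunit summed to 31967 ± 316, 33152 ± 988 and 35796 ± 4606 TPM. The ratio of large to small subunit TPM was 1.60 to 1.64 in DMSO, 1.55 to 1.57 in LPS and 1.45 to 1.48 in LPS + Ska, without overlap between groups. No p is given for these sums, which are scores over the members.

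**Figure D1:**
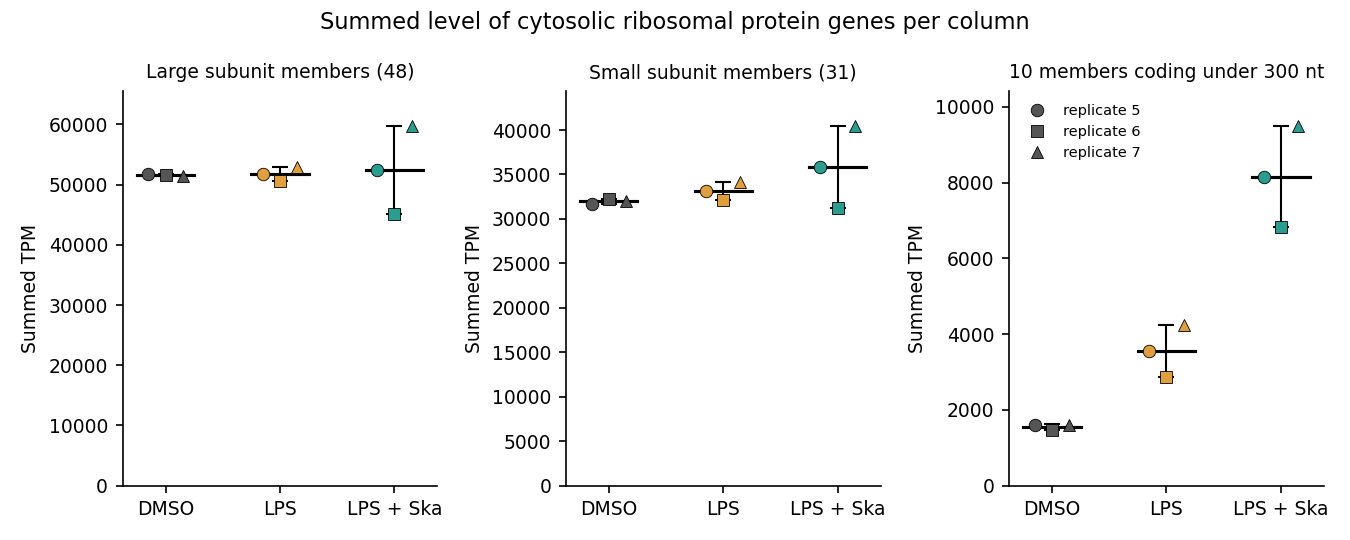
Summed TPM (y axis) of the large subunit members, the small subunit members and the 10 members with the shortest coding sequence, by group; points are columns, bars the mean and SD of 3 columns. The LPS + Ska columns spread from 45195 to 59677 TPM for the large subunit, while the short members lie at 1467 to 1593 TPM in DMSO and at 6832 to 9480 TPM in LPS + Ska.

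In the comparison of LPS with DMSO, 15 members were up-regulated and 7 were down-regulated, where a call needed both an adjusted p from limma under 0.05 and a change of more than 1.5-fold upwards or to less than 0.67 of the control. Over all 12819 genes tested the same rule called 12.7% higher and 20.0% lower. By adjusted p alone, 28 members were higher and 17 lower, against 26.2% and 34.2% of genes tested. The median log2 fold change was 0.09 over members and -0.07 over all genes tested. Small subunit members had a median of 0.14 (7 called higher and 1 lower of 31), and large subunit members a median of 0.07 (8 higher and 6 lower of 48).

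Of the 7 down-regulated members, 6 were large subunit proteins, or 12.5% of the 48 large subunit members, against 20.0% of all genes tested called lower. Rpl15, a large subunit protein, had 1236, 1278 and 1211 TPM in DMSO and 648, 647 and 650.0 TPM in LPS. No LPS column of Rpl15 came near a DMSO column, and its log2 fold change was -0.94 ± 0.15 (SE, limma adjusted p = 0.000454). Rpl13a, which is also known as part of a translation inhibitor complex in interferon-treated monocytes, had 1622, 1549 and 1695 TPM in DMSO and 970, 877 and 1063 TPM in LPS. Its columns did not overlap either, at -0.74 ± 0.14 (adjusted p = 0.00122). Rpl13 fell by 0.83 on the log2 scale, Rpl7a by 0.70 and Rps9, the only small subunit member called lower, by 0.61. Rps9 was under the fold limit without LPS replicate 6 (-0.57). Rpl8 had 925 to 1279 TPM in LPS and 1817 to 1921 in DMSO (-0.77 ± 0.25, adjusted p = 0.0240), but its call was lost without any one of the DMSO columns and without LPS replicate 5 or 6 (adjusted p = 0.0534 to 0.0826). With a trend of GC content removed, Rpl8, Rpl13, Rpl13a and Rps9 were among those no longer called, with log2 fold changes of -0.32, -0.45, -0.57 and -0.38.

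Up-regulated members included Rpl30, Rps15a and Rps20, singled out here after their values were seen because their level fell back or stayed in LPS + Ska. Rpl30 had 127, 109 and 123 TPM in DMSO, 254, 249 and 259 in LPS and 235, 225 and 245 in LPS + Ska. It was higher in LPS than in DMSO by 1.08 ± 0.06 on the log2 scale (adjusted p = 1.26e-06), and its values in LPS + Ska lay just under those in LPS (-0.11, adjusted p = 0.223). The 9 pseudogene rows of Rpl30 summed to means of 299, 348 and 269 TPM in DMSO, LPS and LPS + Ska. Each of these is above the mean of the gene itself, so the size of its rise depends on an uncertain split. Rps15a rose from 159 to 196 TPM in DMSO to 345 to 382 TPM in LPS (1.01 ± 0.09) and was at 263 to 305 TPM in LPS + Ska. The step down to LPS + Ska was past the p limit but not the fold limit (-0.35 ± 0.09, adjusted p = 0.0148). Rps20 showed the same order, with 384 to 397, 593 to 608 and 495 to 541 TPM. Its call against DMSO was lost with the GC trend removed (0.12, adjusted p = 0.222).

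Rpl22, an RNA-binding large subunit protein that the ribosome can do without, was called higher in LPS (1.00 ± 0.34, adjusted p = 0.0282), and its DMSO columns were unequal at 228, 466 and 407 TPM. Without DMSO replicate 5 its log2 fold change was 0.69 (adjusted p = 0.107), and the call was also lost without any one LPS column (adjusted p = 0.0556 to 0.0714). Its paralog Rpl22l1, which the symbol rule does not take, rose from 328 to 346 TPM in DMSO to 546 to 571 TPM in LPS.

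In the comparison of LPS + Ska with LPS, 9 members were up-regulated and 1 was down-regulated, against 3.35% of all genes tested called higher and 6.14% called lower. By adjusted p alone the counts were 17 higher and 5 lower, against 8.89% and 19.7%. Those called higher were Rps27, Rps28, Rps29, Rpl39, Rps21, Rpl37a, Rps19, Rpl41 and Rplp2, and the member called lower was Rps10. The median over members was -0.04, over large subunit members -0.10 and over small subunit members 0.02, against -0.10 over all genes tested, so that the typical member lay near 0. The counts varied with the LPS + Ska column left out: without replicate 6, 15 members were higher and 0 lower, and without replicate 7, 9 were higher and 5 lower. Over all 12819 genes tested the same settings called 503 higher and 996 lower, and 402 and 724, against 429 and 787 with all columns. Of the 9 members called higher, 8 were called under each of 17 alternative settings, and the exception, Rpl41, reached an adjusted p of 0.0612 without LPS replicate 6.

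Rps27, a zinc finger protein of the small subunit, changed most. It had 135, 124 and 136 TPM in DMSO, 558, 397 and 718 in LPS, and 2015, 1820.0 and 2209 in LPS + Ska. The groups did not overlap at either step, with log2 fold changes of 2.03 ± 0.18 for LPS against DMSO (adjusted p = 1.26e-05) and 1.89 ± 0.18 for LPS + Ska against LPS (adjusted p = 0.000154). Among the 79 members it went from rank 64 by mean level in DMSO to rank 55 in LPS and rank 10 in LPS + Ska. Its paralog Rps27l, known as a p53 target, had 404 to 416 TPM in DMSO, 753 to 810.5 in LPS and 1005 to 1118 in LPS + Ska. The ratio of Rps27 to Rps27l was 0.322 ± 0.0169 in DMSO, 0.709 ± 0.179 in LPS and 1.90 ± 0.0823 in LPS + Ska (SD, n = 3), so Rps27 was below its paralog in every DMSO and LPS column and above it in every LPS + Ska column. The retrogene Rps27rt, a near-identical copy outside the symbol rule, had 10.8 to 12.2, 33.4 to 53.6 and 59.2 to 147.5 TPM in the same groups.

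Rpl39, a very short protein at the exit tunnel of the large subunit, had 147, 111 and 137 TPM in DMSO, 413, 337 and 490 in LPS, and 1348, 1339 and 1357 in LPS + Ska. The step to LPS + Ska was 1.72 ± 0.13 (adjusted p = 5.9e-05), and the LPS + Ska columns lay closer together than for most members. Its pseudogene row Rpl39-ps rose as well (1.91, adjusted p = 0.000727). Rps28, a small subunit protein near the mRNA exit, had 35.0, 31.2 and 27.6 TPM in DMSO, 85.9, 47.9 and 124 in LPS, and 293, 178 and 409 in LPS + Ska. Its lowest LPS + Ska column was above its highest LPS column (1.78 ± 0.35, adjusted p = 0.00605). Rps29, a zinc finger protein of the small subunit, rose from 68.2 to 135 TPM in LPS to 236 to 456 TPM in LPS + Ska (1.76 ± 0.28, adjusted p = 0.00196). Rps21, another small subunit protein, rose from 243 to 345 TPM to 548 to 826 TPM (1.22 ± 0.15, adjusted p = 0.000739). The large subunit proteins Rpl37a and Rpl41 rose by 0.97 ± 0.17 and 0.83 ± 0.21 (adjusted p = 0.00308 and 0.0165).

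**Figure D2:**
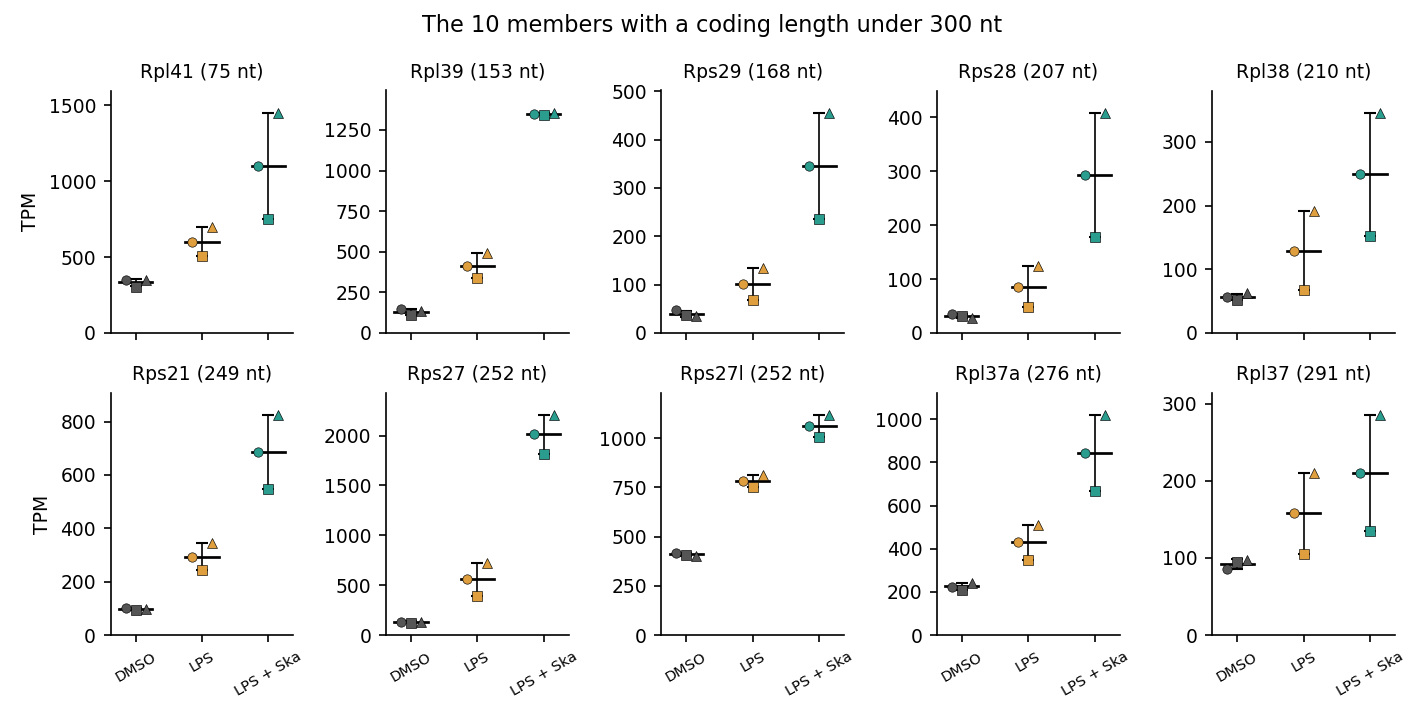
TPM (y axis) by group for the 10 members with a coding length under 300 nt, in order of length; points are columns 5 (circle), 6 (square) and 7 (triangle), bars the mean and SD. In all 10 the mean is higher in LPS than in DMSO and higher again in LPS + Ska; the means of Rps27 go from 132 to 2015 TPM and those of Rpl37 from 92.3 to 210.0 TPM.

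Rps19 stood out as a member of ordinary length. It encodes a small subunit protein whose loss causes Diamond-Blackfan anemia in people. It had 662, 640.3 and 640.1 TPM in DMSO, 742, 719 and 765 in LPS, and 1343, 1292 and 1395 in LPS + Ska. All LPS + Ska columns were above all LPS columns, with a difference of 0.86 ± 0.05 (adjusted p = 1.11e-05). The step from DMSO to LPS was 0.20 ± 0.05 (adjusted p = 0.00597), under the fold limit.

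The stalk proteins did not move together. Rplp0, the base of the stalk, rose at each step, with 1132 to 1165 TPM in DMSO, 1455 to 1502 in LPS and 1686 to 1965 in LPS + Ska. Its log2 fold changes of 0.36 and 0.30 passed the p limit (adjusted p = 0.000562 and 0.00538) but not the fold limit, and LPS + Ska against DMSO passed both (0.66 ± 0.06, adjusted p = 1.07e-05). Rplp1 was higher in LPS than in DMSO by 0.47 ± 0.05 (adjusted p = 4.49e-05). Rplp2 was lower in LPS, at 441 to 567 TPM against 598 to 656 in DMSO (-0.32 ± 0.10, adjusted p = 0.0232), and higher in LPS + Ska, at 727 to 909 TPM (0.70 ± 0.10 against LPS, adjusted p = 0.00148). The ratio of Rplp1 to Rplp2 was 9.98 ± 0.268 in DMSO, 17.3 ± 2.59 in LPS and 9.89 ± 0.787 in LPS + Ska.

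Rps10, a small subunit protein at the mRNA entry side, was the single member called lower in LPS + Ska than in LPS. It had 1775, 1728 and 1792 TPM in DMSO, 1525, 1477 and 1573 in LPS, and 1009, 818 and 1199 in LPS + Ska. All LPS + Ska columns lay below all LPS columns (-0.61 ± 0.11, adjusted p = 0.00433), but without LPS + Ska replicate 6 the difference was -0.47 and under the fold limit. The mean sum of its 4 pseudogene rows went the other way, from 260 TPM in LPS (217 to 302) to 352 TPM in LPS + Ska (225 to 478), with overlapping columns. Others that were lower by adjusted p alone included Rps15a, Rpl6 and Rps20, with log2 fold changes of -0.35, -0.32 and -0.21.

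**Figure D3:**
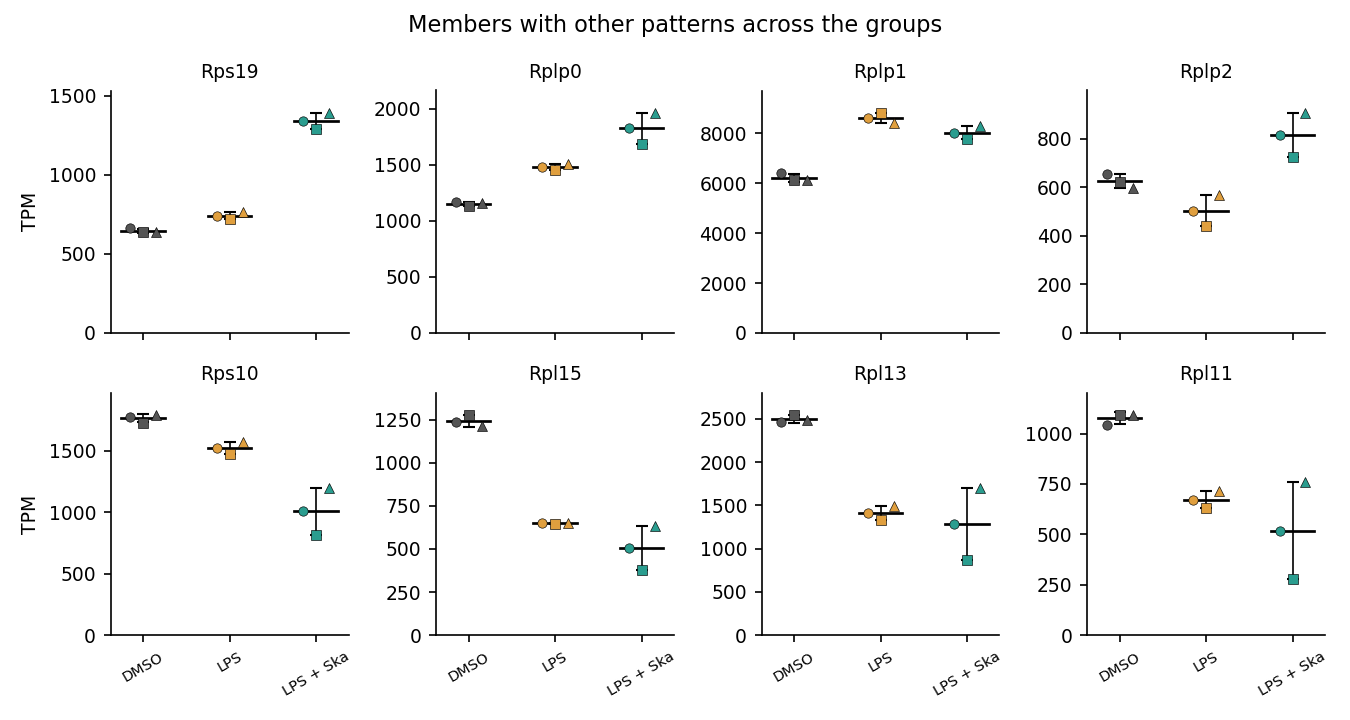
TPM (y axis) by group for 8 members with other patterns; points are columns 5 (circle), 6 (square) and 7 (triangle), bars the mean and SD. Rps19 steps up from 742 to 1343 TPM between LPS and LPS + Ska, Rplp2 is lowest in LPS at 504 TPM, and the columns of Rpl15, Rpl13 and Rpl11 lie below those of DMSO in both treated groups.

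In the comparison of LPS + Ska with DMSO, which shares its columns with the comparisons above, 22 members were up-regulated and 13 were down-regulated, against 11.4% and 25.3% of genes tested. By adjusted p alone 32 were higher and 24 lower, against 22.7% and 40.6%. The median was 0.15 over members, 0.31 over small subunit members and 0.02 over large subunit members, against -0.18 over all genes tested. Scaling by median ratios moved the median of all genes to -0.01. The largest changes were those of Rps27 (3.92 ± 0.18), Rpl39 (3.36 ± 0.13), Rps28 (3.11 ± 0.35), Rps29 (3.06 ± 0.28) and Rps21 (2.79 ± 0.15). The lowest were Rpl15 (-1.32 ± 0.15), Rpl11 (-1.17 ± 0.28), Rpl7a (-1.02 ± 0.13) and Rpl13 (-1.01 ± 0.19).

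Rpl5 and Rpl11, which with a small ribosomal RNA bind Mdm2 and so restrain the breakdown of p53, differed. Rpl11 had 1044 to 1094 TPM in DMSO, 633 to 713 in LPS and 518, 278 and 759 in LPS + Ska, where its columns lay farther apart than in the other groups. It was lower in LPS + Ska than in DMSO (-1.17 ± 0.28, adjusted p = 0.00501), and its LPS value of -0.68 did not pass the limit (adjusted p = 0.0608). Rpl5 had 913 to 1011, 1047 to 1070.0 and 897 to 1013 TPM in the same groups. Its difference between LPS + Ska and DMSO was 0.01 ± 0.06 (adjusted p = 0.863), and -0.43 (adjusted p = 0.00204) with the GC trend removed. Of 6 genes listed for this checkpoint, the p53 targets Ccng1 and Mdm2 were called higher in LPS + Ska than in DMSO (1.16 and 0.90), and Bbc3, also a p53 target, and Trp53 itself were called lower (-0.79 and -0.76), where 11.4% and 25.3% of genes tested were called. By adjusted p alone, the p53 target Cdkn1a was higher (0.42) and Mdm4, the last of the listed genes, was lower (-0.36).

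Other members with known roles differed in direction and size. Rps3, which lines the mRNA entry and also acts in NF-kB complexes and DNA repair, had 721 to 748 TPM in DMSO, 462 to 579 in LPS and 588 to 823 in LPS + Ska. It was lower in LPS than in DMSO (-0.50 ± 0.12, adjusted p = 0.00497) and higher in LPS + Ska than in LPS (0.43 ± 0.12, adjusted p = 0.0237), neither past the fold limit. Rps6, the small subunit protein that S6 kinase phosphorylates, was not past the p limit in any comparison (-0.09, -0.04 and -0.13), nor were Rps4x, on the X chromosome (0.14, 0.00 and 0.14), Rpl10 (0.04, -0.04 and -0.00) and Rpl4 (0.09, -0.11 and -0.01). Rpl3, which helps form the peptidyl transferase center, was lower in LPS and in LPS + Ska than in DMSO by adjusted p alone (-0.27 and -0.38). Rpsa, which is also known as the laminin receptor, had 2503 to 2582 TPM in DMSO, 2266 to 2448 in LPS and 1415 to 2246 in LPS + Ska. It was lower in LPS + Ska than in DMSO by adjusted p alone (-0.50 ± 0.13, adjusted p = 0.00882), and was called lower without LPS + Ska replicate 7 (-0.66).

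**Figure D4:**
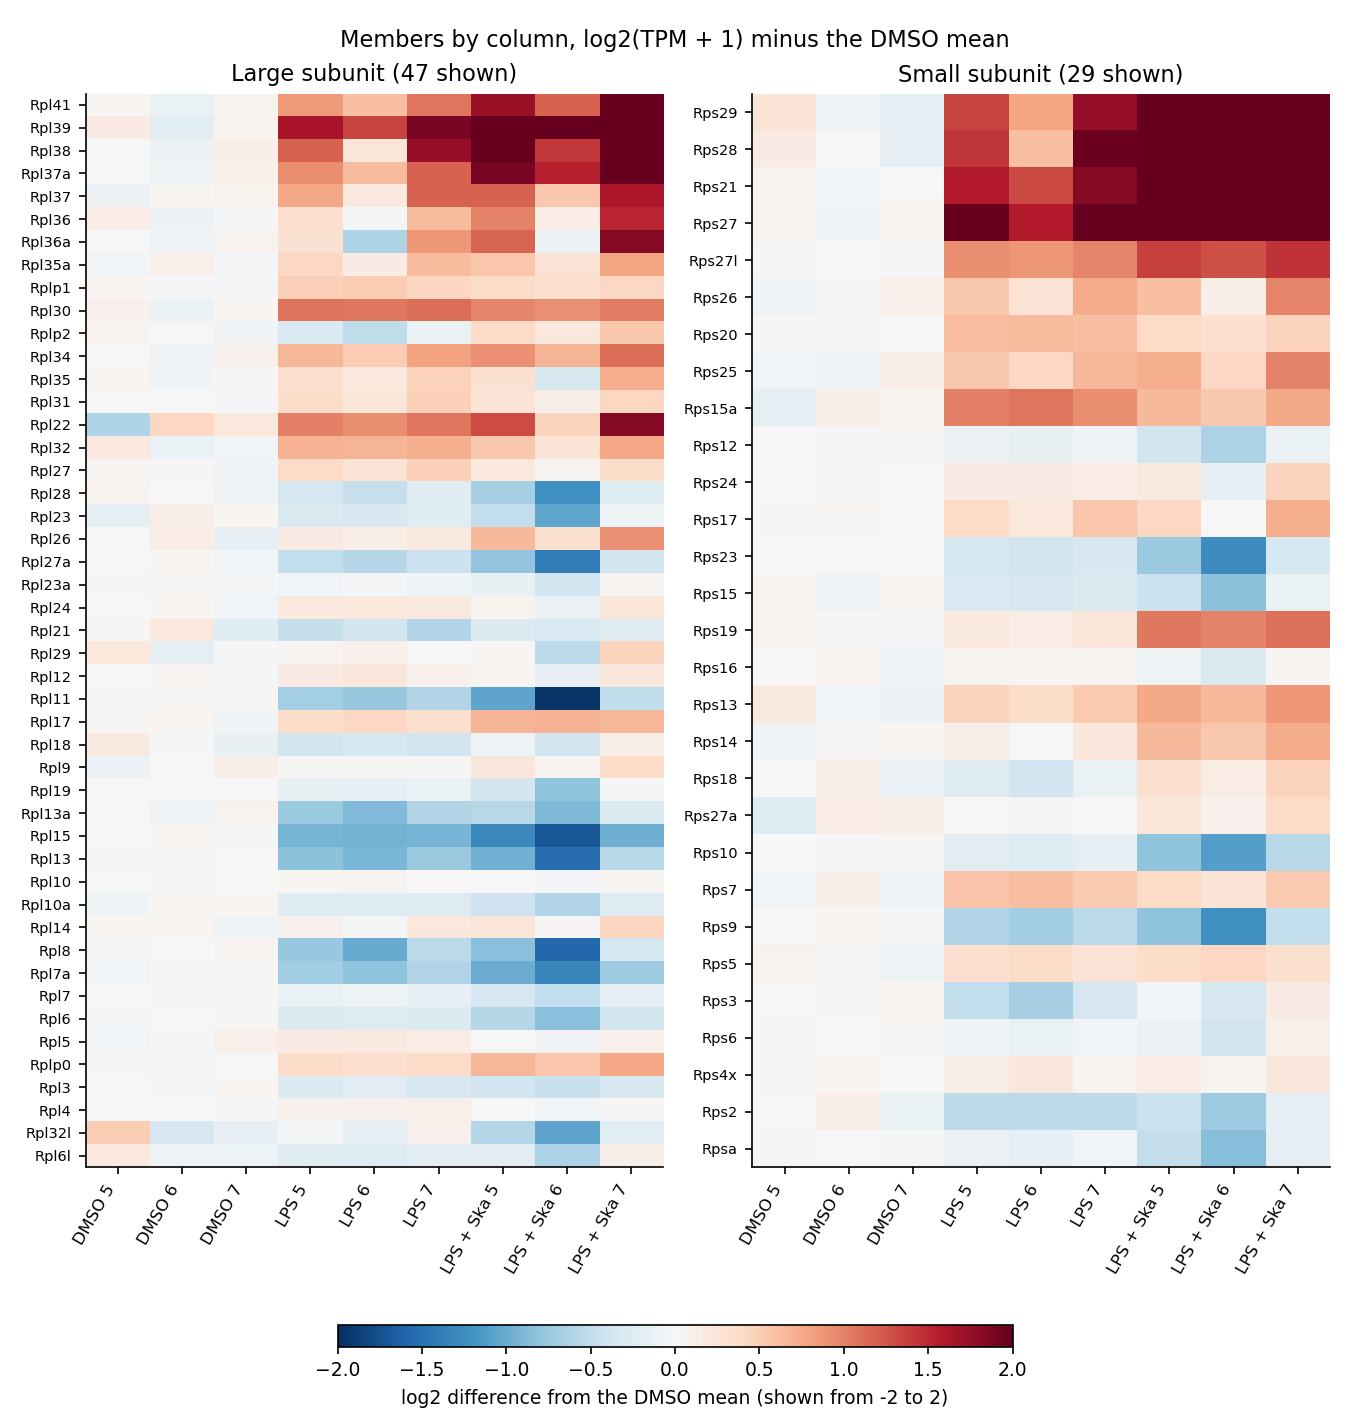
Colour gives log2(TPM + 1) of each of 76 members (rows, by subunit and from short to long coding sequence, members without one last) minus its DMSO mean, for the 9 columns, with colours capped at -2 and 2. The red block at the top of each panel is the set of short members, and LPS + Ska replicate 6 was below replicate 7 in 77 of all 79 members.

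Many of the members with the largest increases had a short coding sequence, a property the symbol rule did not use and which was looked at after the changes were seen. Increases at both steps were not limited to short members: besides Rplp0 and Rps19, Rpl17 (552 nt) was higher by adjusted p alone in LPS than in DMSO (0.36, adjusted p = 0.000202) and in LPS + Ska than in LPS (0.32, adjusted p = 0.00196). Coding lengths were known for 77 members and ran from 75 nt (Rpl41) to 1257 nt (Rpl4), with a median of 453 nt against 1344 nt for other protein-coding genes tested. The 10 members under 300 nt were Rpl41, Rpl39, Rps29, Rps28, Rpl38, Rps21, Rps27, Rps27l, Rpl37a and Rpl37. They summed to 1467 to 1593 TPM in DMSO, 2872 to 4235 in LPS and 6832 to 9480 in LPS + Ska, or 1.85% ± 0.0921, 4.17% ± 0.696 and 9.22% ± 0.265 of the TPM of all members (SD, n = 3). In LPS 9 of the 10 were called higher than in DMSO, in LPS + Ska 7 of the 10 were called higher than in LPS, and 10 of the 10 were called higher than in DMSO. The shares called higher in these comparisons were 12.7%, 3.35% and 11.4% over all genes tested. Over the 242 other protein-coding genes under 300 nt they were 18.6%, 12.4% and 26.0%. The exception in LPS was Rpl37 (0.72, adjusted p = 0.0520, and 0.0129 with a replicate block). The exceptions at the second step were Rps27l (0.44, adjusted p = 0.000581, under the fold limit), Rpl38 (0.99, adjusted p = 0.0744, and 0.0143 with a replicate block) and Rpl37 (0.40, adjusted p = 0.323). The block p-values cannot decide these calls. The labels do not say that same-numbered columns belong together, and the tie fixes the deviations of the treated columns. The call of Rpl38 in LPS was lost without any one DMSO column and without LPS replicate 5 or 7 (adjusted p = 0.0650 to 0.118). Their medians were 1.17, 1.10 and 2.41 in the 3 comparisons.

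The 46 members of 300 to under 600 nt had medians of 0.16, -0.10 and 0.24, and the 21 of 600 nt or more had medians of -0.24, -0.11 and -0.34. Of those 21, 0 were called higher and 5 lower (23.8%) in LPS than in DMSO, against 12.1% and 21.5% of the 8952 other genes of that length, so the share called lower was near the background. In LPS + Ska against DMSO 1 was called higher and 5 lower, against 9.22% and 27.9%. Over the 77 members, Spearman's rho of the log2 fold change with coding length was -0.67 for LPS against DMSO, -0.46 for LPS + Ska against LPS and -0.69 for LPS + Ska against DMSO, values across genes that share the same 9 columns and no test. Over the 10392 other protein-coding genes the same values were 0.06, -0.36 and -0.10, so for LPS + Ska against LPS a negative relation was also present outside the members. Over the 67 members of 300 nt or more they were -0.51, -0.19 and -0.53. With GC content in place of coding length, rho was -0.31, -0.04 and -0.25 over the 77 members. Over the other protein-coding genes it was -0.62, -0.05 and -0.61, so in both comparisons with DMSO their changes followed GC content more than coding length. Without the 10 short members the medians of the 69 others were 0.02, -0.10 and -0.00, and the ratio of large to small subunit TPM was still lower in LPS + Ska (1.54 to 1.56) than in DMSO (1.61 to 1.65). Among these 69, the large subunit medians were 0.02, -0.11 and -0.01, and the small subunit medians were 0.02, -0.01 and 0.15.

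**Figure D5:**
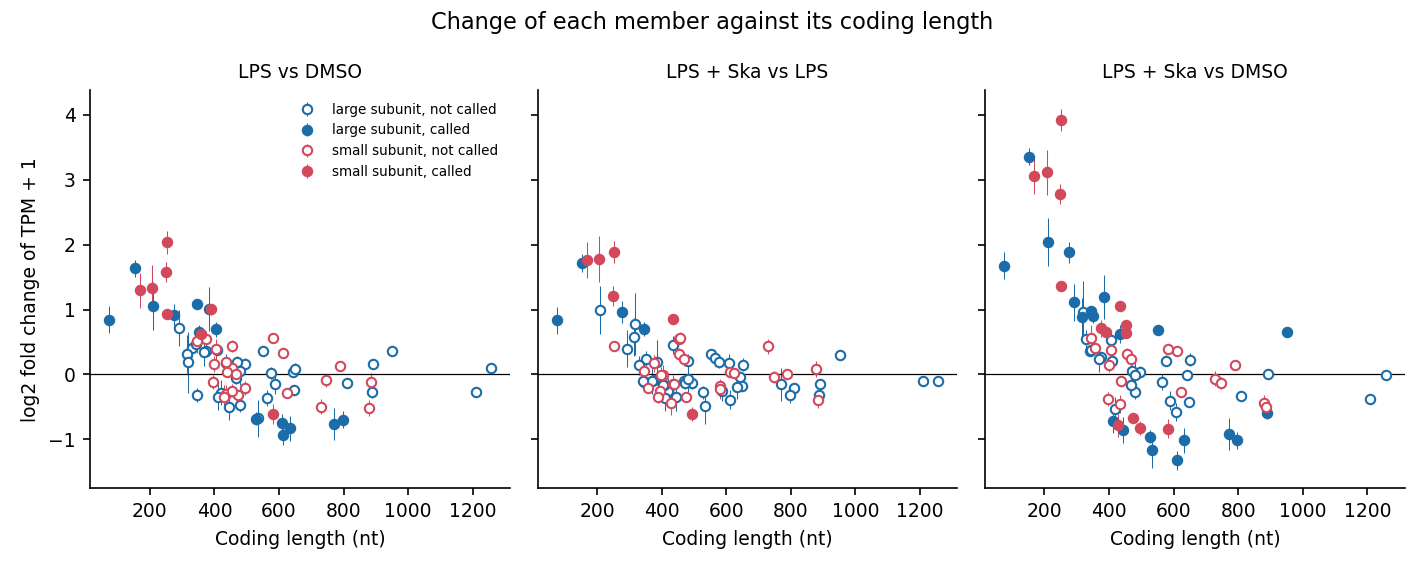
log2 fold change of TPM + 1 with its standard error (y axis) against coding length in nt (x axis) for 77 members in the 3 comparisons; blue marks the large and red the small subunit, and filled points were called. Members under 300 nt lie above 0 in all panels, and the lowest point in both comparisons with DMSO is Rpl15.

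Other short genes had smaller positive medians. The 242 other protein-coding genes under 300 nt had medians of 0.05, 0.13 and 0.20 in the 3 comparisons, with 12.4% called higher in LPS + Ska than in LPS, against -0.12 and 1.93% for the 8952 genes of 600 nt or more. With a trend of log2 fold change with transcript length over all genes removed, the differences between LPS + Ska and LPS were 1.78 for Rps27, 1.67 for Rps28, 1.65 for Rps29, 1.62 for Rpl39, 1.11 for Rps21 and 0.33 for Rps27l. How far the length of a transcript, its recovery in the library or its assignment to copies takes part in these values was not tested.

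Genes that make or regulate ribosomes were mostly under the fold limit, as were most genes tested. For LPS against DMSO the background over all genes tested was 12.7% called higher and 20.0% lower, or 26.2% and 34.2% by adjusted p alone, and for LPS + Ska against LPS it was 3.35% and 6.14%, or 8.89% and 19.7%. Of 40 ribosome biogenesis genes, 3 were called higher and 1 lower in LPS than in DMSO, where 18 were higher and 8 lower by adjusted p alone. In LPS + Ska 0 were called higher and 2 lower than in LPS, where 1 was higher and 16 lower by adjusted p alone. Myc, a driver of ribosome production, was higher in LPS than in DMSO by 1.86, and Nop10, a part of pseudouridylation complexes, was lower in LPS + Ska than in LPS by 0.82. Of 21 translation factors and related genes with a pyrimidine tract, 4 were called higher and 0 lower in LPS than in DMSO, where 13 were higher and 3 lower by adjusted p alone. Against LPS, 0 of these were called higher and 1 lower in LPS + Ska, where 0 were higher and 10 lower by adjusted p alone. The list of 12 RNA polymerase I genes had 1 called in each direction in LPS and 0 in LPS + Ska against LPS, where 2 were lower by adjusted p alone. In LPS against DMSO, 3 of the 12 were higher and 2 lower by adjusted p alone. The 19 mTORC1 pathway genes had 2 called in each direction in LPS, and Deptor, an inhibitor of the complex, was the single call in LPS + Ska against LPS (-0.93). By adjusted p alone, 3 of the 19 were higher and 5 lower in LPS than in DMSO, and 2 higher and 4 lower in LPS + Ska than in LPS. The 78 mitochondrial ribosomal protein genes, which serve the separate ribosome of mitochondria, had 1 called higher and 14 lower (17.9%, near the background) in LPS than in DMSO and 2 higher and 1 lower in LPS + Ska than in LPS. Their medians were -0.15, -0.05 and -0.25 in the 3 comparisons.

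Of 8 ribosomal protein genes that the symbol rule leaves out, Rps27rt and Rpl22l1 were called higher in LPS than in DMSO and Rps27rt in LPS + Ska than in LPS. Rps3a1 had 2367 to 2476 TPM in DMSO and 2737 to 2976 in LPS + Ska. The 108 pseudogene rows tested had medians of 0.31, -0.02 and 0.34, with 13 called higher and 5 lower in LPS + Ska than in LPS, against 3.35% and 6.14% of all genes tested.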

How the data were processed

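RNA from 9 RAW264.7 samples (DMSO, LPS and LPS + Ska, 3 each) was sequenced by the authors, whose processing notes name fastp 0.20.1, HISAT2 2.2.1, StringTie 2.0 and the mm10 build. They deposited 1 table of TPM per gene, which gives no depth; 0 columns were left out. Symbols matched 55141 of 55401 identifiers, and coordinates and coding lengths came from GENCODE mouse release 21 (GRCm38, the assembly of mm10).

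Genes averaging 1 TPM or more were tested in limma 3.58.1 (R 4.3.3) on log2(TPM + 1), which understates changes of low genes, with all 9 columns in 1 fit, an intensity trend and two-sided p-values adjusted by Benjamini-Hochberg over 12819 genes. The script was tested on simulated data with 9 independent columns, which does not show how the p-values behave with the tied columns. Named genes were, per comparison, the 5 members with the highest and the 5 with the lowest log2 fold change past the p limit, the 5 highest and 5 lowest by level, and members with textbook roles or a paralog; others were named after their values were seen. Some members are counted but not reported by name here. Members, lists and tests were chosen with earlier results of these data known. Same-numbered deviations from the group means correlated at 0.38, 0.15 and 0.13 between LPS and LPS + Ska, where the tie of the columns fixes the deviations, and at -0.03 to 0.08 with DMSO. Alternatives were a pseudocount of 0.1, other TPM filters (none, 5), 2 other scalings, 2 groups alone, no trend, a replicate block, values recovered from the tied columns, removal of length or GC trends, and leaving out each column.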

Additional observations from a re-analysis of the deposited data

How the results depend on the processing

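Of the 15 members called higher in LPS than in DMSO, 10 were called under each of 17 alternatives, as were 2 of the 7 called lower; against LPS, 8 of the 9 called higher in LPS + Ska were, and 0 of the 1 called lower; for LPS + Ska against DMSO it was 15 of 22 and 8 of 13. By adjusted p alone the counts were 28 and 17 for LPS against DMSO, 17 and 5 for LPS + Ska against LPS, and 24 lower for LPS + Ska against DMSO. For LPS + Ska against LPS, leaving out single columns gave 8 to 15 higher and 0 to 5 lower, median-ratio scaling gave 0 lower and removal of the length trend 2 lower. Over all 12819 genes tested, leaving out single columns gave 316 to 503 higher and 576 to 996 lower. There, median-ratio scaling gave 543 lower and removal of the length trend 775 lower. For the same comparison, the median over members ranged from -0.14 to 0.08 and changed sign. The large minus small subunit median for LPS + Ska against DMSO was -0.29, and it was -0.13 with the length trend removed, -0.0094 with the GC trend removed, and -0.34 to -0.19 without single columns; the cause was not tested. Some single genes past the p limit, or past it in the alternative, changed sign: Rpl5 in LPS (-0.28) and LPS + Ska (-0.43) against DMSO and Rps20 in LPS + Ska (-0.12) with the GC trend removed, and Rpl10 (0.18) and Rpl4 (0.17) in LPS + Ska against DMSO with median-ratio scaling. With the replicate block the counts were 16 and 8, 10 and 1, and 23 and 14 in the 3 comparisons. Of the 12819 genes tested, the same fit called 1649 higher and 2586 lower, 427 and 771, and 1469 and 3260. Added calls were Rpl37 (0.72, adjusted p = 0.0129) and Rpl11 in LPS against DMSO, Rpl38 in LPS + Ska against LPS, and Rpl36a and Rpl32l in LPS + Ska against DMSO. These added calls cannot be judged, because the labels give no pairing and the tie fixes the deviations of the treated columns.

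Each treated group holds at most 2 independent values, so its spread is poorly known. TPM gives no read counts, and near-identical copies can trade reads. A TPM is a share, so a change of one abundant gene moves the others, and RNA per cell was not measured.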
